A study of Homo sapiens with 24 samples.

Results

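Ferritin and the genes that bring iron into a cell, sense it, store it and release it from heme were followed in ARP1 cells, a human multiple myeloma line derived from antibody-secreting plasma cells. The 10 genes were chosen by name and not by their values: FTH1, FTL, TFRC, SLC40A1, SLC11A2, IREB2, ACO1, NCOA4, HMOX1 and HMOX2. Of these, 9 are among the 19158 genes of the deposited table and all 9 passed the filter on low values; SLC40A1, which encodes the iron exporter ferroportin, is not listed there and was not analysed here. The control cells received PBS, the vehicle, and the treated cells received LPA, which is taken here as lysophosphatidic acid, at a labelled 4 mg/mL, both for 24 h. That concentration is high for a lipid in culture, so its unit is in doubt. Each group had 3 libraries of total RNA, each read in 4 lanes that were averaged and counted as 1 replicate. The labels do not state whether a group's libraries were separate cultures; p-values therefore reflect the spread among these libraries alone, and that spread may be technical.

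Iron is stored inside a shell built from the ferritin heavy chain FTH1, which oxidises it, and the light chain FTL. TFRC takes up iron bound to transferrin, SLC11A2 moves it out of the endosome, and NCOA4 carries ferritin to the lysosome for breakdown. ACO1 and IREB2 encode the iron regulatory proteins IRP1 and IRP2, which bind a hairpin called the iron-responsive element when iron is scarce: binding near the start of the ferritin or ferroportin transcript blocks its translation, and binding behind the coding sequence of the TFRC transcript protects it from decay. HMOX1 and HMOX2 are the inducible and the constitutive heme oxygenase, which free iron from heme. Plasma cells have a high secretory load, and myeloma cells are known for their sensitivity to excess iron. RNA levels, as measured here, do not give the translation of ferritin.

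The hairpins are shown because they are the sequence these genes share and because their place in the transcript divides storage and export genes from uptake. Each was found in GENCODE release 29 transcripts (GRCh38) by the letters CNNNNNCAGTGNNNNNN, with the 5 bases before and the 5 bases at the end of this core required to pair. Transcripts were searched on their own strand only. The loop CAGTGN is in capitals, with 5 flanking bases on each side of the core, read 5′ to 3′.
FTH1, 5′ UTR, chr11:61967575-61967601, minus strand: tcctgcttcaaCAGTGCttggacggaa
FTL, 5′ UTR, chr19:48965336-48965362, plus strand: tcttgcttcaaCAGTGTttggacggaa
SLC40A1, 5′ UTR, chr2:189580662-189580688, minus strand: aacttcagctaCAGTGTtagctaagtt
TFRC, 3′ UTR, chr3:196050980-196051006, minus strand: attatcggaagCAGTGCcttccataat
TFRC, 3′ UTR, chr3:196050576-196050602, minus strand: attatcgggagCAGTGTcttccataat
TFRC, 3′ UTR, chr3:196050511-196050537, minus strand: tgtatcggagaCAGTGAtctccatatg
TFRC, 3′ UTR, chr3:196050464-196050490, minus strand: attatcgggaaCAGTGTttcccataat
Both ferritin genes and SLC40A1 held 1 match each, and TFRC held 4. The FTH1 match lay in 10 of its 12 annotated transcripts. With the longest coding transcript of each of 20389 genes, a match lay in the 5′ UTR of 0.108% and in the 3′ UTR of 0.652%. No match was found in transcripts of the other 6 genes, which says only that these letters, paired in this way, are not there.

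The libraries held between 5498910 and 5615625 reads with PBS and between 6941747 and 8740992 with LPA. Values are FPM, a gene's reads scaled to the total reads of its library, and are CPM by another name. Means are given ± SD over n = 3 libraries. A log2 fold change compares LPA with PBS after adding 1 to the FPM, and its p-value is from limma, adjusted by the Benjamini-Hochberg method over all 16274 genes tested. On deposited FPM the log2 fold change of the median gene was 0.13. Fold changes are therefore also given on rescaled FPM, divided by size factors from medians of ratios, where the median gene was at 0.00. The deeper LPA libraries and the shift of the median gene both move with the treatment, and their part in the results was not tested. An earlier analysis of these files found that PBS 2 and LPA 3 stood apart within their groups. Fold changes of the iron genes without both are given with the other alternatives in the closing section. Of the 10 plasma cell markers all were listed, with a summed level of 1710 to 1873 FPM with PBS and 2757 to 2937 FPM with LPA, and 8 of them were higher with LPA, against 22.5% of all genes tested (7 on rescaled FPM, against 9.63%). Gene positions are GRCh38, from GENCODE release 29. Markers of other cell types were lower. The macrophage list had 4 of 8 genes listed, summing to between 3.31 and 7.38 FPM in the 6 libraries, and its defining gene CD14 averaged 0.181 FPM with PBS and 0.304 FPM with LPA. The erythroid list had 7 of 8 listed, with a sum of 19.2 to 25.8 FPM. Most of that sum was the erythropoietin receptor EPOR, which averaged 18.3 FPM with PBS and 13.9 FPM with LPA and was called lower (limma adjusted p = 0.0212). The globin genes HBA1 and HBA2 averaged 0.539 and 0.843 FPM with PBS. The stromal list had 6 of 7 listed, with a sum of 21.2 to 30.4 FPM with PBS and 19.1 to 24.0 FPM with LPA, and the T cell list 3 of 6, with 3.91 to 5.07 FPM and 5.63 to 7.93 FPM.

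With LPA the ferritin heavy chain transcript fell, while those of the transferrin receptor, of IRP2 and of the ferritin carrier NCOA4 rose. TFRC was 1.38-fold higher, IREB2 1.29-fold and NCOA4 1.27-fold, and FTH1 was at 0.795 of its PBS mean. The other 5 genes did not pass the test. On deposited FPM this made 3 genes higher and 1 lower of 9, against a background of 22.5% of all tested genes called higher, 4.49% lower and 27.0% in either direction. Rescaled, the same 3 were higher and 2 were lower, FTH1 and HMOX1, against 9.63% higher, 9.45% lower and 19.1% in all. The median log2 fold change was 0.17 over the 9 genes and 0.13 over all genes tested. In a bulk library, a lower level can come from fewer cells with the transcript or from less of it per cell, which cannot be told apart.

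**Figure D1:**
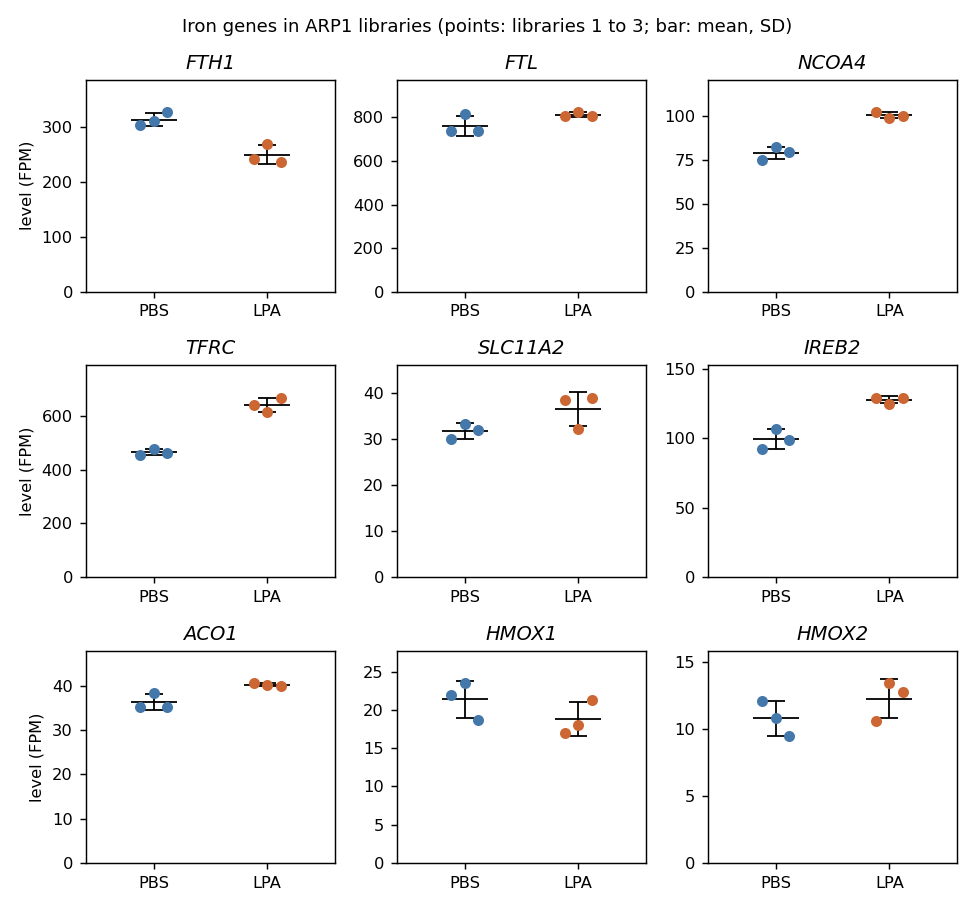
Level of each of the 9 listed iron genes in FPM (vertical axes, all from 0) in the 3 PBS and 3 LPA libraries; points are libraries 1 to 3 from left to right, the long bar is the mean and the whiskers are the SD. On this scale the groups do not overlap for FTH1, NCOA4, TFRC, IREB2 and ACO1, and overlap for FTL, SLC11A2, HMOX1 and HMOX2. Of all tested genes 38.8% did not overlap, 31.4% with LPA above and 7.42% with LPA below. On rescaled FPM, ACO1 overlaps and HMOX1 does not.

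The storage genes behaved unequally. FTH1 (ENSG00000167996, chr11:61959718-61967660, minus strand), the heavy chain, stood at 303, 311 and 328 FPM in PBS 1 to 3 and at 243, 269 and 237 FPM in LPA 1 to 3. Every LPA library lay below every PBS library, and the means were 314 ± 12.5 and 249.7 ± 17.4 FPM. The log2 fold change was -0.33 (SE 0.06, limma adjusted p = 1.40e-05), and -0.48 on rescaled FPM (adjusted p = 0.000555). FTH1 was called lower without any 1 of the libraries, with fold changes from -0.39 to -0.29, and at -0.30 without both PBS 2 and LPA 3. With 1 prior variance for all genes and no robust step, however, it missed the threshold (limma adjusted p = 0.053, against 2.52e-09 to 0.053 over the alternatives). The separate parts of both changes were not tested.

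FTL (ENSG00000087086, chr19:48965301-48966878, plus strand), the light chain, stood at 735, 814 and 736 FPM with PBS and at 806, 824 and 806 FPM with LPA. PBS 2 lay among the LPA libraries and the other PBS libraries lay below them. The means were 762 ± 45.4 and 812 ± 10.4 FPM, with a log2 fold change of 0.09 (95% confidence interval 0.00 to 0.19, limma adjusted p = 0.134). The direction turned on rescaled FPM, to -0.06 (interval -0.13 to 0.02, adjusted p = 0.316). Without PBS 2 alone, FTL passed as higher at 0.14 (adjusted p = 0.00658).

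The ratio of FTH1 to FTL within a library does not depend on how libraries are scaled. It was 0.412, 0.382 and 0.445 in the PBS libraries and 0.301, 0.327 and 0.294 in the LPA libraries. The groups did not overlap in this ratio, which follows from the separate ranges of both genes in each group. The sum of both ferritin transcripts was 1039, 1125 and 1063 FPM with PBS and 1049, 1093 and 1042 FPM with LPA, so the groups overlapped in the sum. Both genes have many near-identical processed pseudogenes, and the authors' rule for reads that match several places is not given in the sources used here, so their levels are uncertain. The only ferritin pseudogene listed was FTLP10, with 13 reads over all libraries. FTH1 also overlaps BEST1 on the opposite strand, a gene with 378 reads in all against 1643 to 2122 for FTH1 per LPA library.

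NCOA4 (ENSG00000266412, chr10:46005088-46030714, minus strand), the receptor that takes ferritin to the lysosome, stood at 75.1, 82.3 and 79.3 FPM with PBS and at 102, 98.7 and 99.99 FPM with LPA. All LPA libraries lay above all PBS libraries. The means were 78.9 ± 3.60 and 100.3 ± 1.74 FPM, and the log2 fold change was 0.34 (SE 0.07, limma adjusted p = 0.000245) and 0.20 on rescaled FPM (adjusted p = 0.0135). NCOA4 was called higher without any 1 of the libraries, and by edgeR on recovered reads (adjusted p = 0.00794), which called 10.3% of all genes higher and 9.64% lower. It was not called by DESeq2 (adjusted p = 0.0958), which called 12.4% of the genes with an adjusted p, in either direction. Over the alternatives its adjusted p ran from 3.86e-05 to 0.0958.

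Among the uptake genes, TFRC (ENSG00000072274, chr3:196027183-196082189, minus strand), the transferrin receptor, showed the largest fold change of the 9 genes upwards. It stood at 455, 477 and 461 FPM with PBS and at 638, 615 and 667 FPM with LPA. The spread within a group was small against the gap between groups, and the means were 465 ± 11.1 and 639.8 ± 26.1 FPM. The log2 fold change was 0.46 (SE 0.05, limma adjusted p = 1.78e-10) and 0.31 on rescaled FPM (adjusted p = 3.78e-08). TFRC passed under all 17 alternatives that gave a test. The ratio of TFRC to FTH1 was 1.502, 1.53 and 1.41 in the PBS libraries and 2.63, 2.28 and 2.82 in the LPA libraries. Its lack of overlap follows from the separate genes, since every LPA library was above in TFRC and below in FTH1.

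SLC11A2 (ENSG00000110911, chr12:50979401-51028566, minus strand), which encodes the divalent metal transporter DMT1, stood at 29.9, 33.3 and 32.0 FPM with PBS and at 38.3, 32.1 and 38.9 FPM with LPA. LPA 2 lay among the PBS libraries and the other LPA libraries lay above them. The log2 fold change was 0.19 (95% confidence interval -0.01 to 0.39, limma adjusted p = 0.147) and 0.05 on rescaled FPM (interval -0.13 to 0.22). At 168 to 184 reads per PBS library, the exact Poisson interval of PBS 1 alone spanned 25.6 to 34.8 FPM.

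**Figure D2:**
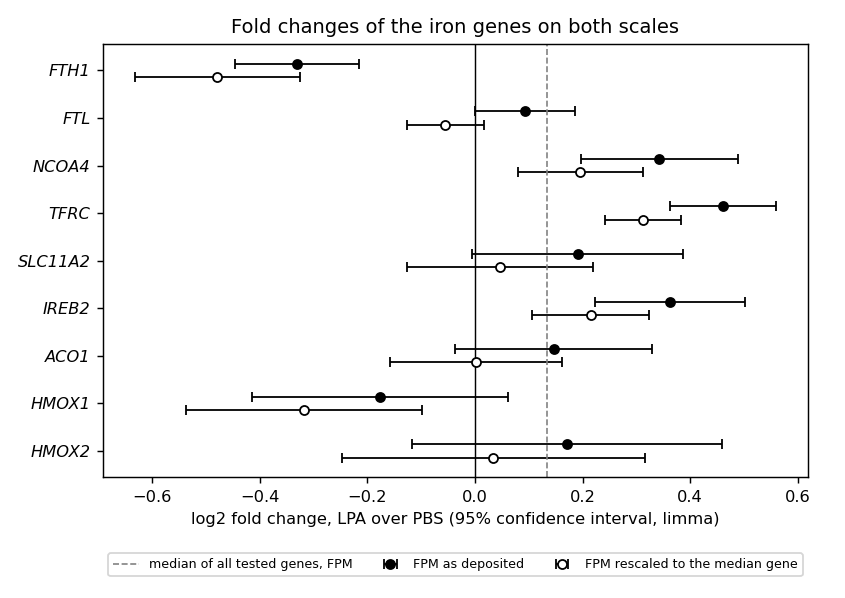
Log2 fold change of LPA over PBS with its 95% confidence interval from limma (horizontal axis) for each of the 9 genes, on deposited FPM (filled) and on rescaled FPM (open); the dashed line is the median of all tested genes on deposited FPM, 0.13. FTH1 lies to the left of 0 and NCOA4, TFRC and IREB2 to the right on both scales, FTL changes sides, and the interval of HMOX1 leaves 0 only on rescaled FPM.

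The iron regulatory proteins differed in level and in test result. IREB2 (ENSG00000136381, chr15:78437431-78501456, plus strand), the gene of IRP2, stood at 92.3, 107 and 98.8 FPM with PBS and at 129, 125 and 129 FPM with LPA. All LPA libraries lay above all PBS libraries, with means of 99.3 ± 7.31 and 128 ± 2.47 FPM. The log2 fold change was 0.36 (SE 0.07, limma adjusted p = 6.61e-05) and 0.21 on rescaled FPM (adjusted p = 0.00361), and IREB2 passed under all 17 alternatives, with adjusted p-values from 2.32e-06 to 0.0413.

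ACO1 (ENSG00000122729, chr9:32384603-32454769, plus strand), the gene of IRP1, which is a cytosolic aconitase when it carries an iron-sulfur cluster, stood at 35.3, 38.5 and 35.3 FPM with PBS and at 40.6, 40.2 and 40.1 FPM with LPA. The groups did not overlap, as for 38.8% of all tested genes, 31.4% with LPA above and 7.42% with LPA below. Of the 9 iron genes, 4 lay above in this way and 1 below. On rescaled FPM the groups of ACO1 overlapped, at 37.92, 38.61 and 37.65 with PBS and 39.04, 39.08 and 36.26 with LPA. ACO1 did not pass the test, at a log2 fold change of 0.15 (95% confidence interval -0.04 to 0.33, limma adjusted p = 0.245), and it was at 0.00 on rescaled FPM (interval -0.16 to 0.16). The ratio of IREB2 to ACO1 was 2.62, 2.78 and 2.80 in the PBS libraries and 3.18, 3.11 and 3.22 in the LPA libraries. These ranges did not overlap, which follows from the separate ranges of both genes in each group. The difference between the changes of both genes was not tested.

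HMOX1, the inducible heme oxygenase (ENSG00000100292, chr22:35380361-35394214, plus strand) stood at 21.9, 23.5 and 18.7 FPM with PBS and at 17.04, 18.0 and 21.3 FPM with LPA. LPA 3 lay among the PBS libraries and PBS 3 among the LPA libraries. The log2 fold change was -0.18 (95% confidence interval -0.41 to 0.06, limma adjusted p = 0.285). On rescaled FPM the libraries stood at 23.6, 23.6 and 19.97 with PBS and at 16.4, 17.5 and 19.3 with LPA, without overlap, and HMOX1 passed as lower at -0.32 (adjusted p = 0.0349). edgeR on recovered reads gave -0.34 (adjusted p = 0.0276) and DESeq2 -0.34 (adjusted p = 0.161), so the call rests on the scaling and the tool.

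HMOX2, the constitutive enzyme (ENSG00000103415, chr16:4474690-4510347, plus strand) stood at 12.1, 10.8 and 9.47 FPM with PBS and at 10.6, 13.4 and 12.8 FPM with LPA. The groups overlapped, and the log2 fold change of 0.17 (95% confidence interval -0.12 to 0.46, limma adjusted p = 0.415) was 0.03 on rescaled FPM. With 52 to 68 reads per PBS library the exact Poisson interval of PBS 3 alone was 7.06 to 12.4 FPM. The ratio of HMOX1 to HMOX2 was 1.81, 2.17 and 1.98 with PBS and 1.603, 1.34 and 1.67 with LPA. All LPA libraries were below all PBS libraries in this ratio, at read counts where counting error is large. HMOX2 overlaps NMRAL1 on the opposite strand, which had 80 reads over all libraries.

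**Figure D3:**
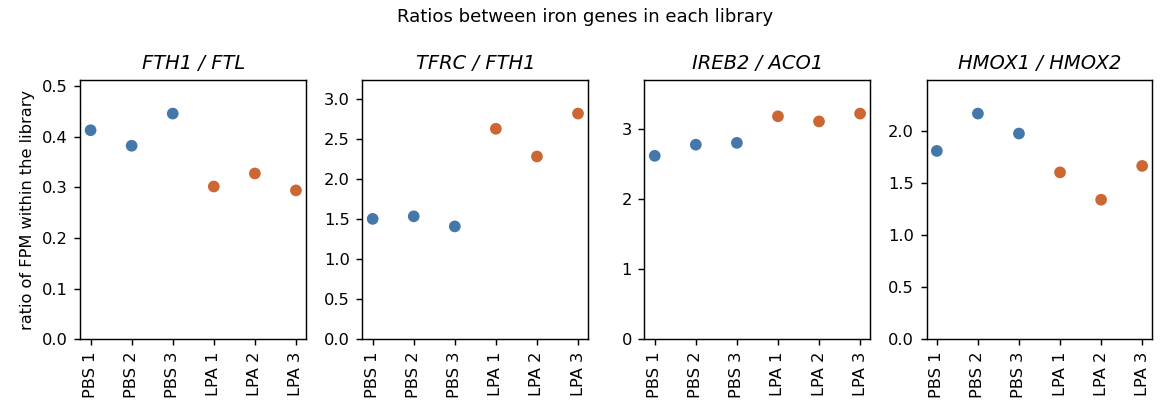
Ratio of the FPM of a pair of genes within each library (vertical axes from 0), for FTH1 to FTL, TFRC to FTH1, IREB2 to ACO1 and HMOX1 to HMOX2; each point is 1 library. The LPA libraries are below the PBS libraries in the first and last panels and above them in the others. For every pair except HMOX1 to HMOX2 this follows from the separate levels of both genes.

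Levels between genes were compared only per length, as FPM divided by the kilobases of all annotated exons of a gene in GENCODE release 29. FTL was highest, at 868 ± 51.7 with PBS and 925 ± 11.8 FPM per kilobase with LPA. FTH1 followed at 155 ± 6.15 and 123 ± 8.59, and TFRC at 58.9 ± 1.41 and 81.1 ± 3.31 FPM per kilobase. NCOA4 came next at 19.3 ± 0.883 and 24.6 ± 0.427 FPM per kilobase, with a gap in every library to the genes on either side of it in this order. IREB2 at 9.19 ± 0.676 and HMOX1 at 8.89 ± 1.02 FPM per kilobase overlapped in the PBS libraries. ACO1 stood at 4.81 ± 0.248 FPM per kilobase with PBS, and SLC11A2 at 3.13 ± 0.168 and HMOX2 at 2.85 ± 0.349, which overlapped. By the longest transcript instead, ACO1 came last with PBS at 4.87, below HMOX2 at 5.03, and the first 6 genes kept their order.

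**Figure D4:**
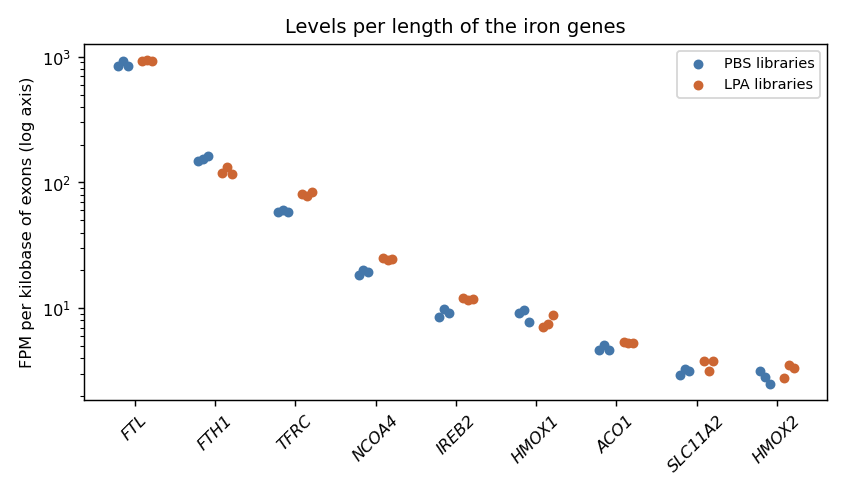
Level per kilobase of annotated exons (vertical log axis, FPM per kilobase) of the 9 genes, ordered by their PBS mean; blue points are PBS libraries and orange points LPA libraries. FTL lies highest, with 868 FPM per kilobase with PBS, and HMOX2 lowest with 2.85.

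Genes around these in iron handling were counted in 10 lists chosen by function, which together held 136 tested genes. Of them 34 were higher and 10 lower on deposited FPM, with a median log2 fold change of 0.13, the same to 2 decimals as that of all genes. On rescaled FPM 14 were higher and 19 lower. As shares of the tested genes these are 25% higher and 7.35% lower on deposited FPM, against the 22.5% and 4.49% of all genes, and 10.3% higher and 14% lower on rescaled FPM, against 9.63% and 9.45%. The counts of each single list below stand against the same shares of all genes, and no list was tested as a set. Of the genes named below that were higher on both scales, SLC39A8, PGRMC2, PGRMC1, UROS, ALAD, NDUFAB1, CIAO1 and GSS were not called by DESeq2. Their DESeq2 adjusted p-values ran from 0.071 to 0.222.

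Of 13 tested genes of iron uptake 6 were higher and 0 lower (2 and 0 rescaled), with a median of 0.26. All tested genes had 22.5% higher and 4.49% lower (9.63% and 9.45% rescaled). SLC46A1, a folate transporter that has also been described as a heme importer, rose from 21.8 ± 2.36 to 33.8 ± 3.24 FPM at a limma adjusted p of 1.21e-05. The metal importers SLC39A8 (ZIP8) and SLC39A14 (ZIP14) rose, ZIP8 from 46.6 to 59.9 FPM and ZIP14 from 42.7 to 52.8 FPM. SLC39A14 did not pass on rescaled FPM (limma adjusted p = 0.151). SLC39A8 passed there close to the threshold (limma adjusted p = 0.0492) and did not pass by upper-quartile scaling (limma adjusted p = 0.0609). Of 11 genes of ferritin loading and breakdown other than the ferritins and NCOA4, 4 were higher and 0 lower (1 and 2 rescaled), with a median of 0.02. The lysosomal membrane protein SCARB2 rose from 94.4 to 123 FPM and passed on both scales, with log2 fold changes of 0.38 on deposited and 0.24 on rescaled FPM. The iron chaperones PCBP2 and PCBP1, which load ferritin, were at 319 and 163 FPM with PBS and at 375 and 189.6 FPM with LPA. Both passed only on deposited FPM. Without PBS 1, PBS 3 or LPA 3 PCBP1 did not pass there either, with log2 fold changes from 0.16 to 0.19.

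Among genes of iron export and the hepcidin pathway, the hormone axis that controls ferroportin, 4 of 14 tested genes were higher and 0 lower (2 and 0 rescaled), with a median of 0.22. The share of all tested genes called higher was 22.5% (9.63% rescaled). BMP6, the ligand that induces hepcidin in liver, averaged 25.2 ± 3.10 FPM with PBS and rose to 41.3 ± 2.78 FPM with LPA (0.70 on the log2 scale, limma adjusted p = 3.45e-07). FURIN, a protease that processes prohepcidin among many substrates, rose from 91.4 to 129 FPM, and both passed under all 17 alternatives. The receptor BMPR2 was called at 0.25 on deposited FPM, and lost the call without any 1 of the libraries other than PBS 2, with values from 0.16 to 0.26. Hepcidin itself, HAMP, averaged 1.68 FPM with PBS and 2.44 FPM with LPA and passed on neither scale.

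Of 11 genes tied to IRP activity or carrying iron-responsive elements, 1 was higher and 3 lower on both scales, with a median of -0.02. The phosphatase CDC14A, known for an element in its 3′ UTR, fell from 12.2 to 7.73 FPM. ZC3H12A, the nuclease Regnase-1, which degrades Tfrc mRNA in mouse T cells, fell from 26.8 ± 3.58 to 19.1 ± 0.701 FPM (limma adjusted p = 0.00125). FBXL5, the iron-sensing ligase subunit that removes IRP2, averaged 37.4 FPM with PBS and 36.8 FPM with LPA and passed on neither scale.

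Of 13 tested genes of heme breakdown and transport 2 were higher and 1 lower on both scales, with a median of 0.07. The heme-binding membrane proteins PGRMC2 and PGRMC1 rose, PGRMC2 from 30.8 to 42.5 FPM and PGRMC1 from 19.2 to 26.3 FPM. ABCB6, a mitochondrial ABC transporter, was lower, from 15.5 to 11.8 FPM, and lost the call without PBS 2, PBS 3, LPA 1 or LPA 2, with log2 fold changes from -0.36 to -0.30. Of 11 genes of heme synthesis 2 were higher and 0 lower on both scales, the enzymes UROS from 24.7 to 34.2 FPM and ALAD from 24.3 to 32.8 FPM, with a median of 0.12.

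Of 25 genes of mitochondrial iron and iron-sulfur cluster assembly 8 were higher and 0 lower (2 and 1 rescaled), with a median of 0.19. For this list and the next, the shares of all tested genes were 22.5% higher and 4.49% lower (9.63% and 9.45% rescaled). CISD2, an iron-sulfur protein of the endoplasmic reticulum, rose from 44.6 to 59.9 FPM, and NDUFAB1, the mitochondrial acyl carrier protein, from 18.9 to 26.2 FPM. GLRX5, a glutaredoxin that passes clusters on, was 1.44-fold higher, from 9.01 FPM with PBS, and lost its call after rescaling (adjusted p = 0.0725) and when LPA 3 was left out (log2 fold change 0.41, adjusted p = 0.0687). In the cytosolic assembly list 3 of 10 were higher and 0 lower (1 and 1 rescaled), with a median of 0.13. CIAO1 rose from 74.1 to 92.6 FPM and passed on both scales, with log2 fold changes of 0.32 on deposited and 0.17 on rescaled FPM. NUBP1 and CIAPIN1 were at 12.7 and 35.0 FPM with PBS and at 17.4 and 42.7 FPM with LPA. Neither passed on rescaled FPM, NUBP1 was not called without PBS 3 (0.36) or LPA 3 (0.39), and CIAPIN1 was not called without LPA 1 (0.29) or LPA 3 (0.22).

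The list of BACH1 and NRF2 regulators had 1 of 9 genes higher and 3 lower (0 and 5 on the rescaled values), with a median of -0.15. BACH1, the heme-sensing repressor of HMOX1 and ferritin genes, averaged 168 ± 18.0 FPM with PBS and fell to 135 ± 3.12 FPM with LPA (-0.31 on the log2 scale, limma adjusted p = 0.000415). MAFF, a small Maf partner of BACH1 and NRF2, fell from 38.9 to 24.9 FPM. MAFG, another partner, went from 76.8 to 65.3 FPM and was not called without PBS 3, LPA 1 or LPA 2, with log2 fold changes from -0.22 to -0.18. NFE2L2, the gene of NRF2, averaged 62.8 FPM with PBS and 66.1 FPM with LPA and passed on neither scale.

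Of 21 tested genes of ferroptosis, iron-dependent cell death by lipid peroxidation, 3 were higher and 3 lower (1 and 7 rescaled), with a median of -0.05. SAT1, an enzyme of polyamine breakdown, fell from 51.4 ± 1.55 to 33.2 ± 2.93 FPM (limma adjusted p = 5.51e-07), and GSS, glutathione synthetase, rose from 17.9 to 24.5 FPM. AIFM2, the ferroptosis suppressor FSP1, fell from 20.6 to 15.2 FPM and missed the threshold without LPA 2 (-0.33, adjusted p = 0.0714). GPX4, the lipid peroxide reductase that restrains ferroptosis, averaged 122 ± 6.86 FPM with PBS and 113 ± 2.82 FPM with LPA, with every LPA library below every PBS library. It missed the threshold on deposited FPM (log2 fold change -0.12, limma adjusted p = 0.210), and was called lower on rescaled FPM (-0.26, adjusted p = 0.000717), by edgeR (adjusted p = 0.000231) and by DESeq2 (adjusted p = 0.00679).

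**Figure D5:**
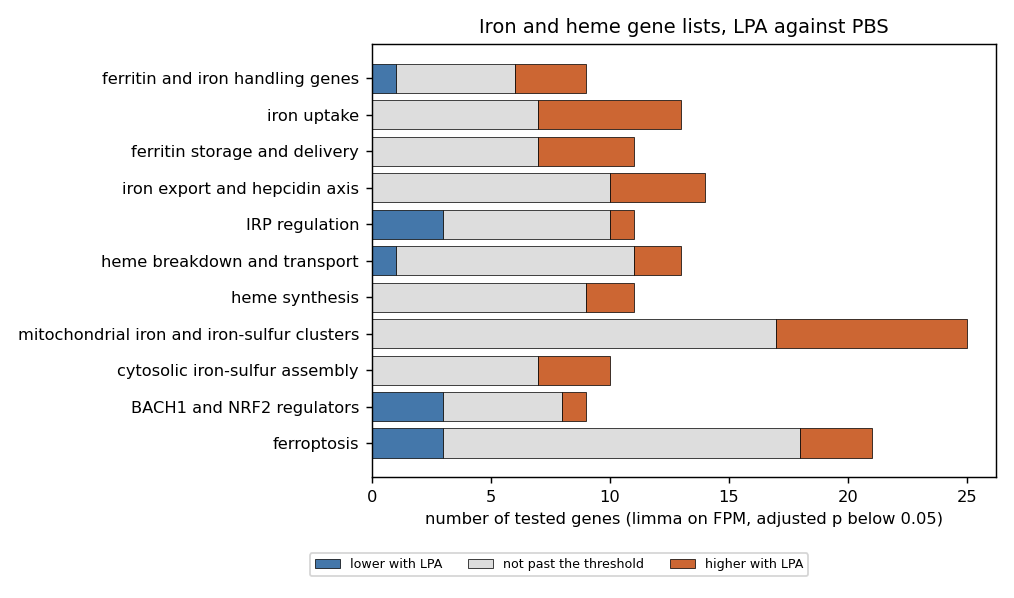
Number of tested genes (horizontal axis) in each iron or heme list that were lower, not past the threshold, or higher with LPA by limma on deposited FPM at an adjusted p below 0.05. The longest bar is the mitochondrial list, with 8 of 25 genes higher and 0 lower, and the ferritin and iron handling genes have 3 higher and 1 lower of 9. All tested genes had 22.5% higher and 4.49% lower.

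For the genes nearest in pattern, likeness was the root-mean-square difference of log2(FPM + 1), each gene centred on its own mean over the 6 libraries, among 7486 genes outside the lists with a mean of at least 20 FPM. Nearest to FTH1 were NXF1, PDCD4 and CLK1, at differences of 0.05, 0.05 and 0.06 on the log2 scale; NXF1, an mRNA export factor, averaged 104.9 FPM with PBS and 81.3 FPM with LPA. Nearest to TFRC were GANAB, PRKDC and TSPYL5, each at 0.02, and nearest to FTL were SMURF2, BDP1 and TTF2, each at 0.01. The genes nearest to FTH1 thus lay farther from it than those nearest to TFRC or FTL did from theirs.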

How the data were processed

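Total RNA of ARP1 cells was sequenced by DNB protocols, per the labels. The authors deposited 1 table of FPM, a CPM unit, with a column for each of 24 lanes; no value column was left unmapped. The build named in the submitters' processing notes is mm10, while all 19158 identifiers are human Ensembl ones, so coordinates come only from GENCODE release 29. Neither the aligner nor the counting tool, its strand setting or its rule for multiply matching reads is given in the sources used here.

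The values were whole multiples of 1 read within 0.02 reads for 100% of values, and recovered reads were summed per library. Listed genes made up 86.5% to 91.6% of the totals, and 1 read was worth 0.114 to 0.182 FPM. Of 19345 rows 187 repeated an identifier and were dropped. Lanes were averaged. A gene entered the test if 3 or more libraries reached 1 FPM, and limma-trend was run on log2(FPM + 1) (limma 3.58.1 in R 4.3.3, robust, two-sided), with a threshold of 0.05 after Benjamini-Hochberg adjustment. Alternatives were rescaling, pseudocounts of 0.25 and 4 FPM, other filters, edgeR 4.0.16, DESeq2 1.42.0, a replicate block and leaving out libraries. Another was limma with 1 prior variance for all genes and without the robust step, called 1 prior variance for short. On simulated reads the limma step (16046 genes) recovered 22% of 50 changes of 1.25-fold, 62% of 1.5-fold, 82% of 2-fold and 92% of 4-fold. It also called 8 unchanged genes. These shares hold for the simulated reads and were not taken as rates for the calls above. Intervals of counts cover counting error only, since reads were not separated into molecules. Genes were named by rule: the iron genes, and up to 3 called genes with the smallest p of each list, or the most abundant where none passed; 1 gene so named is not reported here, and HAMP, FBXL5, NFE2L2, GPX4, HBA1, HBA2, EPOR and CD14 were added after their values were seen. The genes and lists were chosen with earlier results of these data known.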

Additional observations from a re-analysis of the deposited data

How the results depend on the processing

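Of 153 recomputed fold changes of the 9 iron genes (17 alternatives each), 140 kept direction and side of the threshold. TFRC and IREB2 kept theirs under all 17. Without both PBS 2 and LPA 3, log2 fold changes were -0.30 for FTH1, 0.15 for FTL, 0.38 for NCOA4 and 0.45 for TFRC. Those of SLC11A2, IREB2, ACO1, HMOX1 and HMOX2 were 0.18, 0.41, 0.19, -0.20 and 0.15. FTL turned to -0.055 on rescaled FPM, with or without the replicate block, and to -0.064, -0.0499 and -0.0541 by upper-quartile scaling, edgeR and DESeq2; ACO1 turned to -0.0071 by upper-quartile scaling. The count of lower iron genes was 2 on rescaled FPM, by upper quartile, by edgeR and with the block on rescaled FPM, and 0 with 1 prior variance; the cause of the last was not tested. Leaving out 1 library gave 3 to 4 (FTL, without PBS 2) higher and 1 lower. Over all genes, 3666 higher and 731 lower became 1567 and 1538 on rescaled FPM, 1440 and 1605 by upper quartile, 1679 and 1569 by edgeR, 802 and 943 by DESeq2 and 1566 and 473 with 1 prior variance; leaving out 1 library gave 2463 to 4487 higher and 543 to 714 lower. In the lists, 34 higher and 10 lower became 14 and 19 on rescaled FPM, 9 and 20 by upper quartile, 14 and 21 by edgeR, 5 and 15 by DESeq2 and 17 and 5 with 1 prior variance; leaving out 1 library gave 21 (LPA 3) to 44 (PBS 2) higher and 6 (LPA 2) to 10 lower. Rescaling centres the median gene, which moves fold changes down by construction.

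With the replicate number as a replicate block, 3 iron genes were higher and 1 lower, and 3339 and 720 of all genes; on rescaled FPM the block gave 1567 and 1555 of all genes and 14 and 18 of the lists. Deviations of same-numbered libraries correlated at -0.01, -0.04 and -0.05, so the numbers gave no sign of pairing. By the longest transcript the PBS levels per kilobase moved to 255 for FTH1, 90.9 for TFRC, 7.30 for SLC11A2, 15.6 for IREB2, 22.2 for NCOA4, 11.7 for HMOX1 and 5.03 for HMOX2. HMOX1, HMOX2 and SLC11A2 rest on 52 to 335 reads per library.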
